A study of Mus musculus with 9 samples.

Results

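The expression of proteasome genes was described in cultured mouse macrophages that had been grown from bone marrow. The set holds the protein-coding rows whose symbol starts with Psm, a letter from a to g and a number. These are 50 of the 22165 gene rows, and 5 of them, Psmb8, Psmb9, Psmb10, Psme1 and Psme2, form the immunoproteasome and PA28 group that is contrasted with the constitutive subunits. The rule uses the symbol and no measured value, although it was set with earlier results of these data known. The rule also takes in Psmc3ip, which encodes a partner in meiotic recombination and no proteasome subunit.

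The proteasome is the protease that degrades ubiquitin-tagged proteins. Its 20S core is a barrel of alpha and beta rings, and 3 beta subunits of the constitutive form, encoded by Psmb5, Psmb6 and Psmb7, cut peptide bonds. Interferon induces their replacements Psmb8 (also LMP7), Psmb9 (LMP2) and Psmb10 (MECL-1), which form the immunoproteasome, and also Psme1 and Psme2, which encode the alpha and beta subunits of the PA28 cap. In macrophages these products shape the peptides that are presented on class I molecules. The 19S cap, made of ATPase and non-ATPase subunits, recognises and unfolds the tagged proteins.

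Every group came from C57BL/6N mice of 6 to 16 weeks, and every group received lipopolysaccharide (LPS) at 100 ng/mL for 24 h. LPS is a bacterial outer membrane component that starts interferon production in macrophages. The 3 groups of 3 libraries each were wild type (WT), Irg1-/- (KO), and Irg1-/- with 1 mM itaconate (ITA) added at 4 h of LPS. Itaconate is made from cis-aconitate by the product of Irg1, whose current symbol is Acod1. No unstimulated libraries are among the 9, so the response to LPS itself was not measured. Libraries are named here by group and replicate number as labelled, for example KO 3. Nothing in the labels ties a replicate to its own animal or culture. P-values therefore measure only how much these samples scatter, and that scatter may be technical.

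The targeted gene went against the label in 4 libraries. Acod1 had 94, 117 and 31169 reads in WT 1, WT 2 and WT 3. It had 154, 170 and 44920 reads in KO 1, KO 2 and KO 3, and 94, 8 and 60716 reads in ITA 1, ITA 2 and ITA 3. The libraries labelled WT 1 and WT 2 were thus low, and those labelled KO 3 and ITA 3 high. In every group replicate 3 was the high library, and replicates 1 and 2 were low, so Acod1 followed the replicate number and not the group. Which part of the gene is deleted was not given in the sources used here, and every group name below means only the label. Gene reads ranged from 7361671 to 20430359 a library, and KO 1 was the deepest. ITA 3 stood apart, with a mean correlation over genes with the other 8 libraries of 0.900, where the rest had 0.932 to 0.950. All 7 macrophage markers were measured, with summed levels of 7413 to 10006 CPM (counts scaled to a common total) in WT, 6492 to 7327 in KO and 3272 to 7091 in ITA. Sums of markers were not adjusted by TMM (the trimmed mean of M-values), whereas the gene levels below were. The 5 T and NK cell markers in the table summed to at most 0.164 CPM, with Cd3e, Ncr1 and Nkg7 at 0 in every library. In bulk samples, fewer cells of a type and less RNA per cell cannot be told apart. Whether the difference in macrophage markers had a part in any value below was not tested.

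The 5 genes of the immunoproteasome and PA28 group lie in 3 places of the GRCm38 genome (mm10). Psmb9 (ENSMUSG00000096727.2, chr17:34181987-34187764, minus strand) and Psmb8 (ENSMUSG00000024338.14, chr17:34197721-34201454, plus strand) flank Tap1, the first subunit of the peptide transporter, in a block of 19468 bases. Psmb9 and Tap1 overlap by 212 annotated bases on opposite strands. Psme1 (ENSMUSG00000022216.16, chr14:55578123-55581529, plus strand) and Psme2 (ENSMUSG00000079197.10, chr14:55587441-55591113, minus strand) lie 5911 bases apart. Psmb10 (ENSMUSG00000031897.8, chr8:105935735-105938444) is the only one of the 5 on chromosome 8.

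The windows before the transcription starts are shown for 5 genes: Psme1 and Psmb8, whose levels ran opposite to each other across the libraries, Psmb9, which shares its window with Tap1, and the catalytic pair Psmb5 and Psmb6. They are RefSeq windows of GRCm38.p6, here 250 bases before to 30 bases after the start, written 5′ to 3′ on the gene's own strand. Their positions are chr14:55578244-55578523 (plus strand), chr17:34197945-34198224 (plus), chr17:34187301-34187580 (minus), chr14:54617966-54618245 (minus) and chr11:70525107-70525386 (plus). The windows of Psme1, Psmb8 and Psmb9 lie wholly inside the annotated genes, whose annotation begins farther upstream, and that of Psmb9 also reaches into Tap1. Those of Psmb5 and Psmb6 overlap the annotated start of the gene. Capitals mark matches to the motifs described after the sequences.
Psme1: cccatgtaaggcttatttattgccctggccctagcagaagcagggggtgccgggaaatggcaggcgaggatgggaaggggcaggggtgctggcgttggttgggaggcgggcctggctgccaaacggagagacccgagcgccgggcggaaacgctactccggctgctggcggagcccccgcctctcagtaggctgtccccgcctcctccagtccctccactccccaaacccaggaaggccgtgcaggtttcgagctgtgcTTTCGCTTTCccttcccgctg
Psmb8: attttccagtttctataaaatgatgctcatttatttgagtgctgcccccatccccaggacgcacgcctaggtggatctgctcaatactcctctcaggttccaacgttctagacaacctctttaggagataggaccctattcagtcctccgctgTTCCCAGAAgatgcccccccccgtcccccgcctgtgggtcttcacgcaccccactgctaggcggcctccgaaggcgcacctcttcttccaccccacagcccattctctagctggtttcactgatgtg
Psmb9: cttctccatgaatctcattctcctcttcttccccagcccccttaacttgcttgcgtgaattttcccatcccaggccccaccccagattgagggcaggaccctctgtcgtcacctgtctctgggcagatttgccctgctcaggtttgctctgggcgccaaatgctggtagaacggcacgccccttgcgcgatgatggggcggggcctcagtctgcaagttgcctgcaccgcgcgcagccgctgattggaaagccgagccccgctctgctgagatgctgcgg
Psmb5: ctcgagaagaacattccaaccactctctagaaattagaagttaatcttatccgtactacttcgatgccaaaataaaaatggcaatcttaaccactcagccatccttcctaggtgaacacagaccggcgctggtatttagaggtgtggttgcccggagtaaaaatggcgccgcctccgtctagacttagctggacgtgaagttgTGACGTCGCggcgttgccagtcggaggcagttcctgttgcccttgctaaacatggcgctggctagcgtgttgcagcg
Psmb6: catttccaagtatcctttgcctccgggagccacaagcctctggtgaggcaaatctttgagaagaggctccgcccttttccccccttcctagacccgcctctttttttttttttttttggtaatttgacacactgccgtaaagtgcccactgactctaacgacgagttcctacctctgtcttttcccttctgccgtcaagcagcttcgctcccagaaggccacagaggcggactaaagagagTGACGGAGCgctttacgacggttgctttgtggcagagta

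Motifs were searched on both strands in windows of 300 bases, 250 before to 50 after each start, for the 42 of 50 members with a window. A member with several windows, such as Psme2, counted if any of them matched. Shares of all windows count each window, so they are not in the same unit as the counts of members. The letters GAAANNGAAA or TTTCNNTTTC, which resemble the interferon-stimulated response element, were in 3.44% of all 32851 windows. They were in 5 of the 42 members, and among the 5 immunoproteasome and PA28 genes in Psme1 alone, 9 bases after the start. TTCNNNGAA, which resembles the gamma-activated sequence bound by STAT factors, was in 8.3% of all windows and in 3 of 42 members. Psmb8 held it 97 bases before the start, and the other 4 genes of the group did not hold these letters. TGACNNNGC or GCNNNGTCA, which resembles the antioxidant response element, was in 12.4% of all windows and in 6 of 42 members. Psmb5 held it 47 bases and Psmb6 9 bases before the start, 4 of the 25 constitutive genes with a window held it, and none of the 5 immunoproteasome and PA28 genes did. The windows of Psmb9 and Tap1 share 275 bases, chr17:34187306-34187580, because their RefSeq starts lie 225 bases apart on opposite strands. A match is a stretch of letters in this window and says nothing of binding.

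Psmb8 encodes the chymotrypsin-like subunit of the immunoproteasome. Its level was 320, 230 and 209 CPM in WT 1 to 3, 140, 192 and 346 CPM in KO 1 to 3, and 278, 177 and 166 CPM in ITA 1 to 3. The lowest and the highest of the 9 libraries were both labelled KO, and the 3 groups overlapped. The log2 fold change was -0.16 ± 0.35 (SE, n = 3 per group) in KO against WT, -0.13 ± 0.35 in ITA against KO and -0.29 ± 0.35 in ITA against WT. None passed the quasi-likelihood test of edgeR, with adjusted p-values of 0.995, 0.947 and 0.821.

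Psmb9 encodes a subunit that replaces the caspase-like one. It had 59.1, 38.1 and 48.9 CPM in WT, 39.8, 51.0 and 65.1 CPM in KO, and 69.6, 50.7 and 42.7 CPM in ITA. It varied the least of the 5 genes, with a highest level 1.83 times the lowest, and all groups overlapped. Group differences were 0.09 ± 0.30, 0.07 ± 0.30 and 0.16 ± 0.30 on the log2 scale for KO against WT, ITA against KO and ITA against WT.

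Psmb10 encodes the trypsin-like subunit of the immunoproteasome. Levels were 148, 99.4 and 132 CPM in WT, 70.3, 88.6 and 183 CPM in KO, and 181, 135 and 119 CPM in ITA. As for Psmb8, KO 1 was the lowest and KO 3 the highest library. The differences were -0.15 ± 0.35, 0.35 ± 0.35 and 0.20 ± 0.35 in the same order of comparisons.

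Psme2, the beta subunit of PA28, followed Psmb10. It stood at 131, 78.8 and 149 CPM in WT, 65.2, 81.5 and 195 CPM in KO, and 164, 134 and 153 CPM in ITA. KO 1 was again the lowest and KO 3 the highest, a range of 2.99 times, while the 3 ITA libraries lay inside that range. Differences were -0.07 ± 0.38, 0.40 ± 0.38 and 0.33 ± 0.38.

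Psme1, the alpha subunit that joins Psme2 in the same ring, ran the other way. Its level was 620, 555 and 673 CPM in WT, 1061, 784 and 529 CPM in KO, and 534, 741 and 740 CPM in ITA. The library with the most Psme1, KO 1, held the least Psmb8, Psmb10 and Psme2. The library with the least Psme1, KO 3, held the most of those 3 genes. The group differences were 0.36 ± 0.29, -0.24 ± 0.29 and 0.13 ± 0.29, with adjusted p-values of 0.995, 0.855 and 0.913. Psme1 overlaps the end of Emc9 on the opposite strand, and whether the counting used strand was not given in the sources used here, so reads of that overlap may not be told apart.

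**Figure D1:**
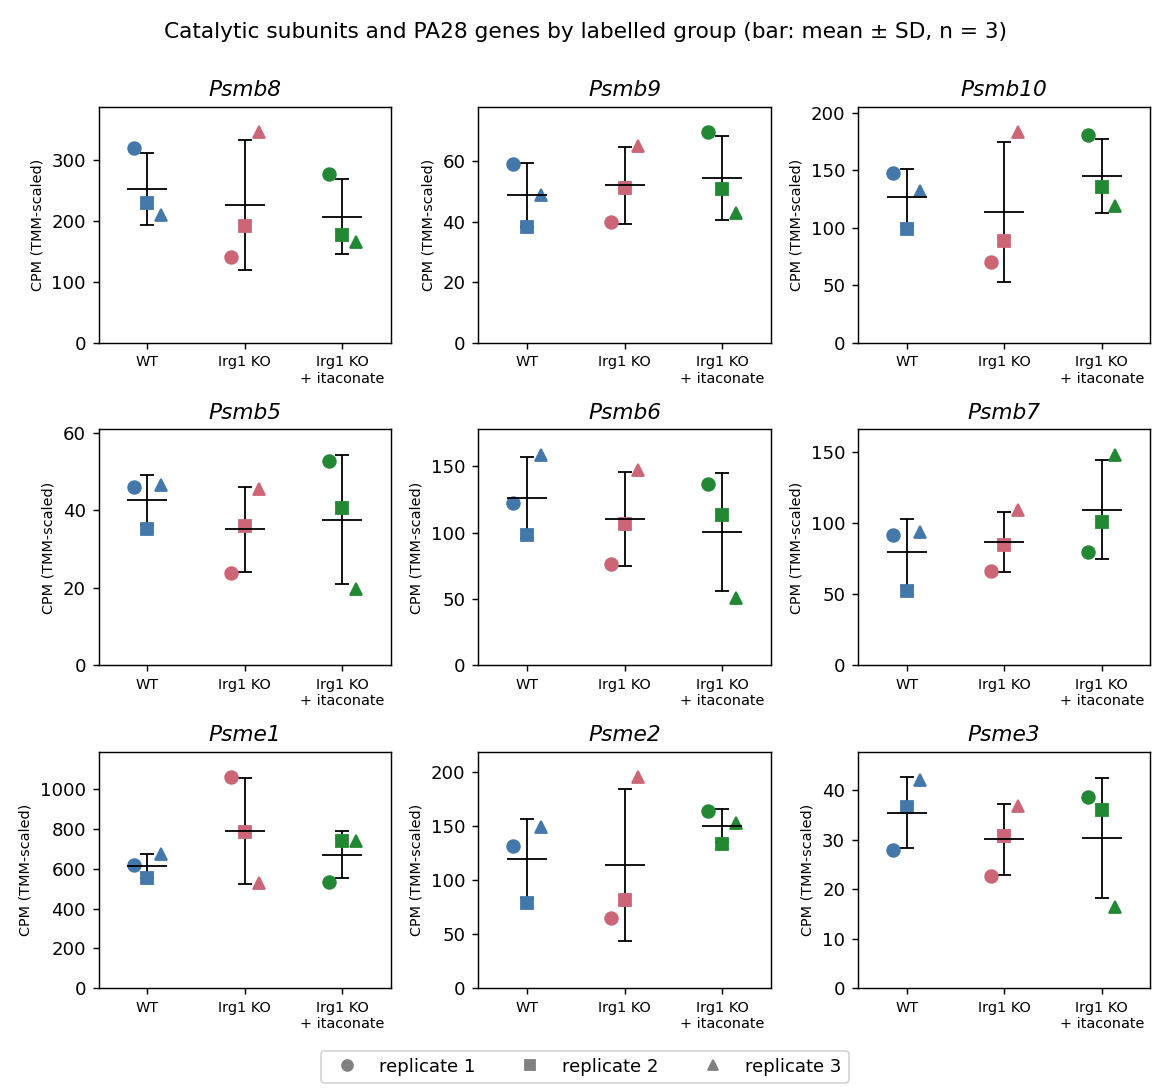
Levels (CPM after TMM scaling, y axes from 0) of the immunoproteasome catalytic genes, their constitutive counterparts and the PA28 genes, 1 point a library, marker shape by replicate number, with the mean and SD of 3 libraries. Groups overlap in every panel, and in Psmb8, Psmb10 and Psme2 the lowest (circle) and highest (triangle) points are both in KO, where Psme1 has the reverse order.

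Pearson's r of log2 CPM over the 9 libraries had a median of 0.64 over the 10 pairs of the 5 genes. Psme1 was set apart after its values were seen. The other 4 genes gave 0.57 to 0.93 in their 6 pairs, with a median of 0.77. Psme1 gave -0.86 to -0.57 with these 4 genes, with a median of -0.70. Without ITA 3 the medians were 0.82 and -0.74. The median over the 465 pairs of constitutive genes was 0.06, but co-variation was not limited to the immunoproteasome genes. The constitutive Psmb5 gave 0.74 with Psmb8, 0.75 with Psmb9, 0.67 with Psmb10 and -0.66 with Psme1. Psmb6 gave 0.66 with both Psmb8 and Psmb9. Among the 7287 tested genes with a mean of at least 10 CPM, ordered by their r with Psmb8, Psmb9 had rank 136. Tap1, the neighbour of Psmb8 and Psmb9, gave 0.90 and 0.78 with these 2 genes and -0.74 with Psme1. These values describe 9 libraries that share their scaling and, in part, their pools, and 4 of which go against their label.

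**Figure D2:**
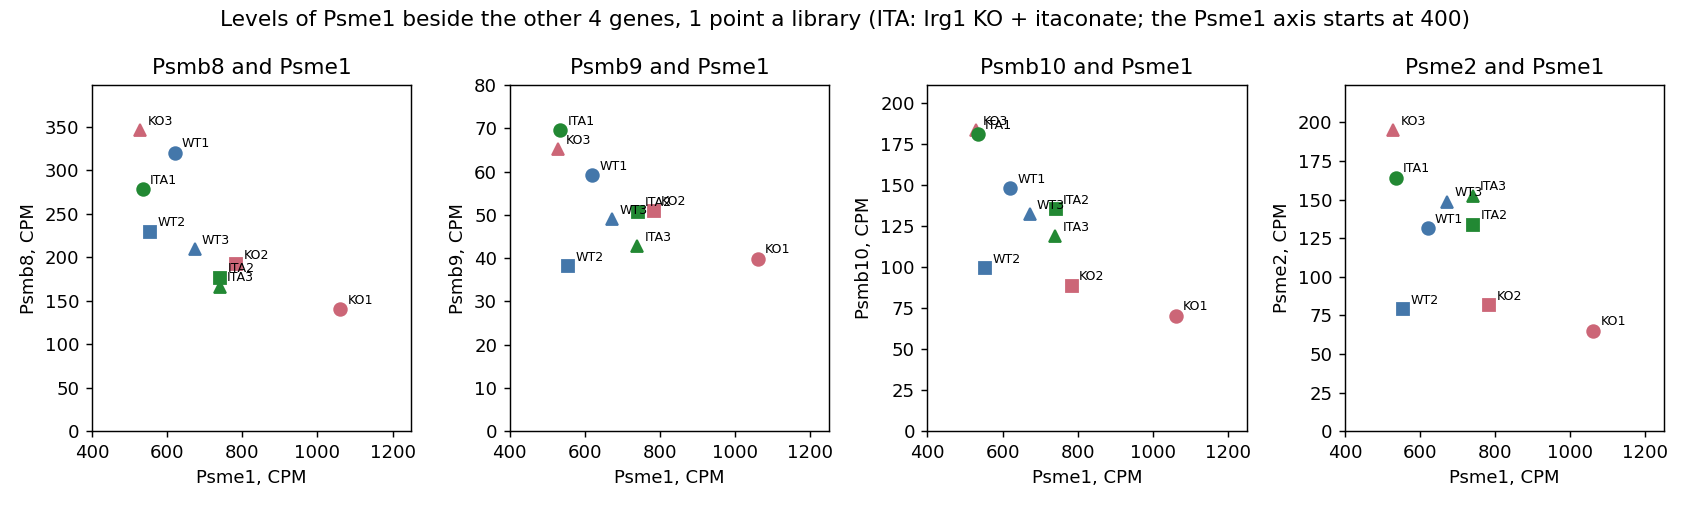
Levels of Psmb8, Psmb9, Psmb10 and Psme2 (y axes from 0, CPM) against the level of Psme1 (x axis from 400 CPM), 1 labelled point a library, colour by group. KO 1 lies at the right with the most Psme1 and low levels of all 4 genes, and KO 3 at the left with the least Psme1.

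The constitutive catalytic genes were compared next. Psmb5, the counterpart of Psmb8, had 46.1, 35.2 and 46.7 CPM in WT, 23.8, 36.1 and 45.4 CPM in KO, and 52.7, 40.7 and 19.6 CPM in ITA. Psmb6, the counterpart of Psmb9, had 122, 98.01 and 159 CPM in WT, 76.4, 107 and 147 CPM in KO, and 137, 114 and 50.6 CPM in ITA. Both were lowest in ITA 3 and second lowest in KO 1, and their r over the 9 libraries was 0.96. Psmb7, the counterpart of Psmb10, did not share that order. It had 91.8, 52.4 and 93.6 CPM in WT, 66.5, 84.5 and 109 CPM in KO, and 79.4, 101 and 148 CPM in ITA, with its highest level in ITA 3. No comparison passed the test for these 3 genes, whose differences ran from -0.33 ± 0.37 (Psmb6, ITA against WT) to 0.47 ± 0.33 (Psmb7, ITA against WT).

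A ratio of 2 genes is read here only from library to library, and not as a ratio of molecules. The Psmb8 to Psmb5 ratio of reads was 5.99 ± 1.32 in WT, 6.28 ± 1.19 in KO and 6.03 ± 2.16 in ITA (SD, n = 3), so the group means differed by less than the SD. The single libraries ran from 4.35 in ITA 2 to 8.47 in ITA 3. The Psmb9 to Psmb6 ratio was 0.394 ± 0.0880, 0.481 ± 0.0394 and 0.601 ± 0.214. ITA 3 alone reached 0.846, and the other 8 libraries lay between 0.309 and 0.521. The Psmb10 to Psmb7 ratio was 1.64 ± 0.244, 1.26 ± 0.365 and 1.47 ± 0.748, and here ITA 3 was the lowest library, at 0.803. The same library therefore had the highest ratio in 2 catalytic pairs and the lowest in the third.

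The wider contrast gave each library the mean log2 CPM of the 5 immunoproteasome and PA28 genes minus that of the 31 constitutive 20S and 19S genes. This difference was 0.62, 0.36 and 0.51 in WT, 0.23, 0.33 and 0.85 in KO, and 0.74, 0.60 and 0.74 in ITA. The KO libraries held both the lowest and the highest value. Group means were 0.49 ± 0.13, 0.47 ± 0.33 and 0.69 ± 0.08 (SD, n = 3). ITA minus KO was 0.22, ITA minus WT 0.20 and KO minus WT -0.02, against an SD of 0.213 pooled over the 3 groups. KO had the largest SD and is no part of ITA minus WT, so the pooled SD is wide for that difference. There ITA 2 (0.60) still lay below WT 1 (0.62). With the 4 libraries against their label left out, the same 3 differences were 0.39, 0.16 and -0.23. A number in the labels, read here as the pool in which libraries were made, puts the 3 WT libraries with KO 1 and KO 2 in pool 1, KO 3 with ITA 1 in pool 2, and ITA 2 and ITA 3 in pools 3 and 4. Within pool 1, KO minus WT was -0.21, and for ITA against WT pool and group cannot be told apart. The same holds for ITA against KO once the 4 libraries are left out, as KO 1 and KO 2 then share no pool with ITA 1 and ITA 2. With the median over genes in place of the mean, ITA minus KO was 0.51 and KO minus WT -0.28. Leaving out Psme1, a choice made after its pattern had been seen, gave 0.31, 0.20 and -0.11 for ITA minus KO, ITA minus WT and KO minus WT.

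**Figure D3:**
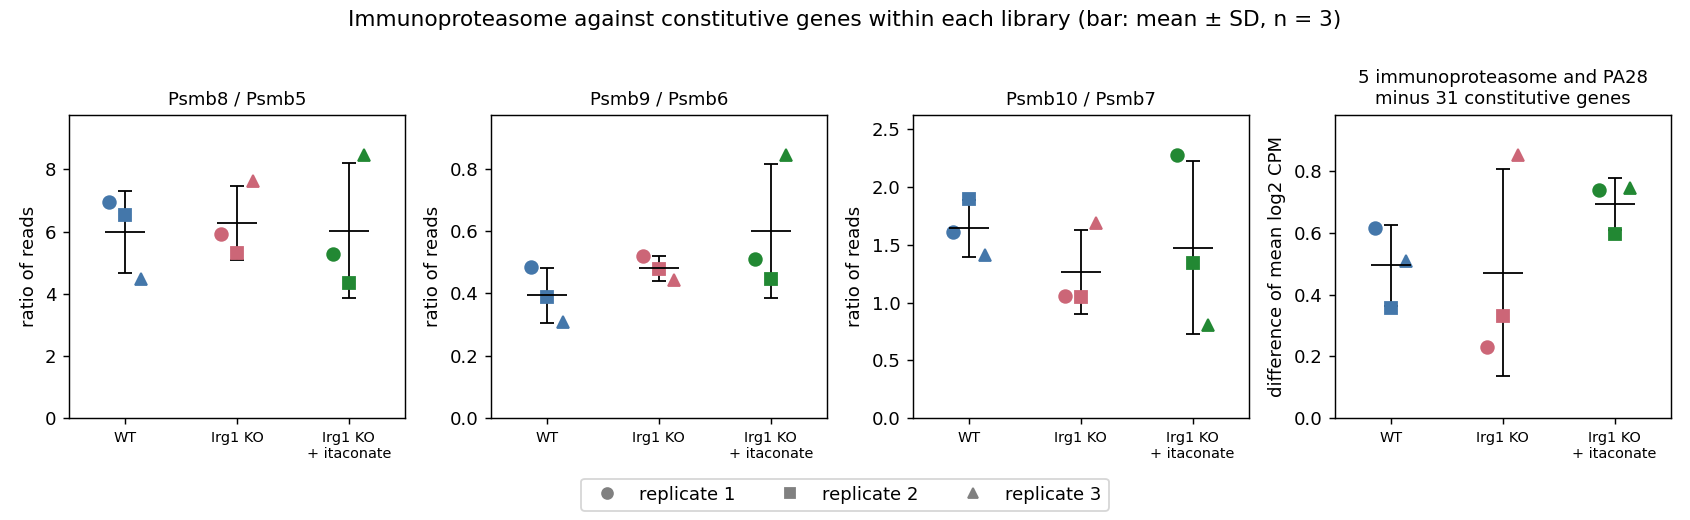
Ratios of reads of the 3 catalytic pairs, and the difference of mean log2 CPM between the 5 immunoproteasome and PA28 genes and the 31 constitutive genes, 1 point a library by labelled group, with mean and SD of 3 libraries (y axes from 0). ITA 3 (triangle) is highest for Psmb8 to Psmb5 and Psmb9 to Psmb6 and lowest for Psmb10 to Psmb7.

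The remaining core subunits shape the barrel and its gate. The 4 structural beta genes, Psmb1 to Psmb4, were low in KO 1, where their mean log2 CPM lay 0.59 below the mean over libraries (-0.59). Psmb1, for example, had 139, 96.5 and 130 CPM in WT, 63.6, 102 and 134 CPM in KO, and 116, 104 and 112 CPM in ITA. Psmb4 had 178, 170 and 203 CPM in WT, 112, 153 and 175 CPM in KO, and 201, 198 and 138 CPM in ITA. In KO 1 the catalytic beta genes were low as well (-0.51), whereas the 7 alpha ring genes (-0.01), the 6 ATPases (0.08) and the 11 non-ATPases (0.07) were near their mean. All 4 structural beta genes had a log2 fold change below 0 in KO against WT, with a median of -0.31, and none passed the test.

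Among the alpha ring genes, which form the outer gate of the core, Psma2 stood out in 1 library. It had 564 CPM in ITA 1 and 165 to 310 CPM in the other 8. The annotated span of Psma2 overlaps that of AW209491 on the same strand, and the part of this overlap in the level was not tested. Psma1 was the steadiest of all members, at 114 to 167 CPM. The alpha ring as a group was lowest in ITA 3 (-0.33), with Psma5 at 30.5 CPM and Psma6 at 83.9 CPM, each the lowest of the 9 libraries.

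ATPases of the 19S cap pull the substrate into the core. Psmc5 was the ATPase with the largest difference between ITA and WT. Its level was 89.8, 66.6 and 55.3 CPM in WT, 70.0, 36.6 and 35.2 CPM in KO, and 50.02, 36.5 and 29.0 CPM in ITA. Every ITA library lay below every WT library. The log2 fold change of ITA against WT was -0.87 ± 0.34, with an unadjusted p of 0.0214 and an adjusted p of 0.537 by edgeR. Without the 4 libraries against their label it was -0.36, with 1 WT library left. KO against WT gave -0.58 ± 0.34 and ITA against KO -0.30 ± 0.34.

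Among the non-ATPases are Psmd4, a ubiquitin receptor, Psmd14, the deubiquitinase at the entry to the core, and the scaffolds Psmd1 and Psmd2. Psmd4 had 195, 228 and 249 CPM in WT and 170, 172 and 181 CPM in KO, with no overlap, and 219, 254 and 181 CPM in ITA. Its log2 fold change in KO against WT was -0.36 ± 0.26. Psmd14 had 88.3, 62.5 and 76.1 CPM in WT, 68.9, 74.9 and 64.9 CPM in KO, and 63.1, 54.2 and 37.8 CPM in ITA, which lay below all KO libraries (-0.43 ± 0.28). Psmd3, a scaffold subunit, gave -0.48 ± 0.31 in ITA against KO, but its low level was that of ITA 3, with 18.5 CPM against 36.5 to 54.6 CPM in the other 8. Psmd1, Psmd2 and Psmd13 were instead highest in ITA 3, at 992, 232 and 33.7 CPM.

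**Figure D4:**
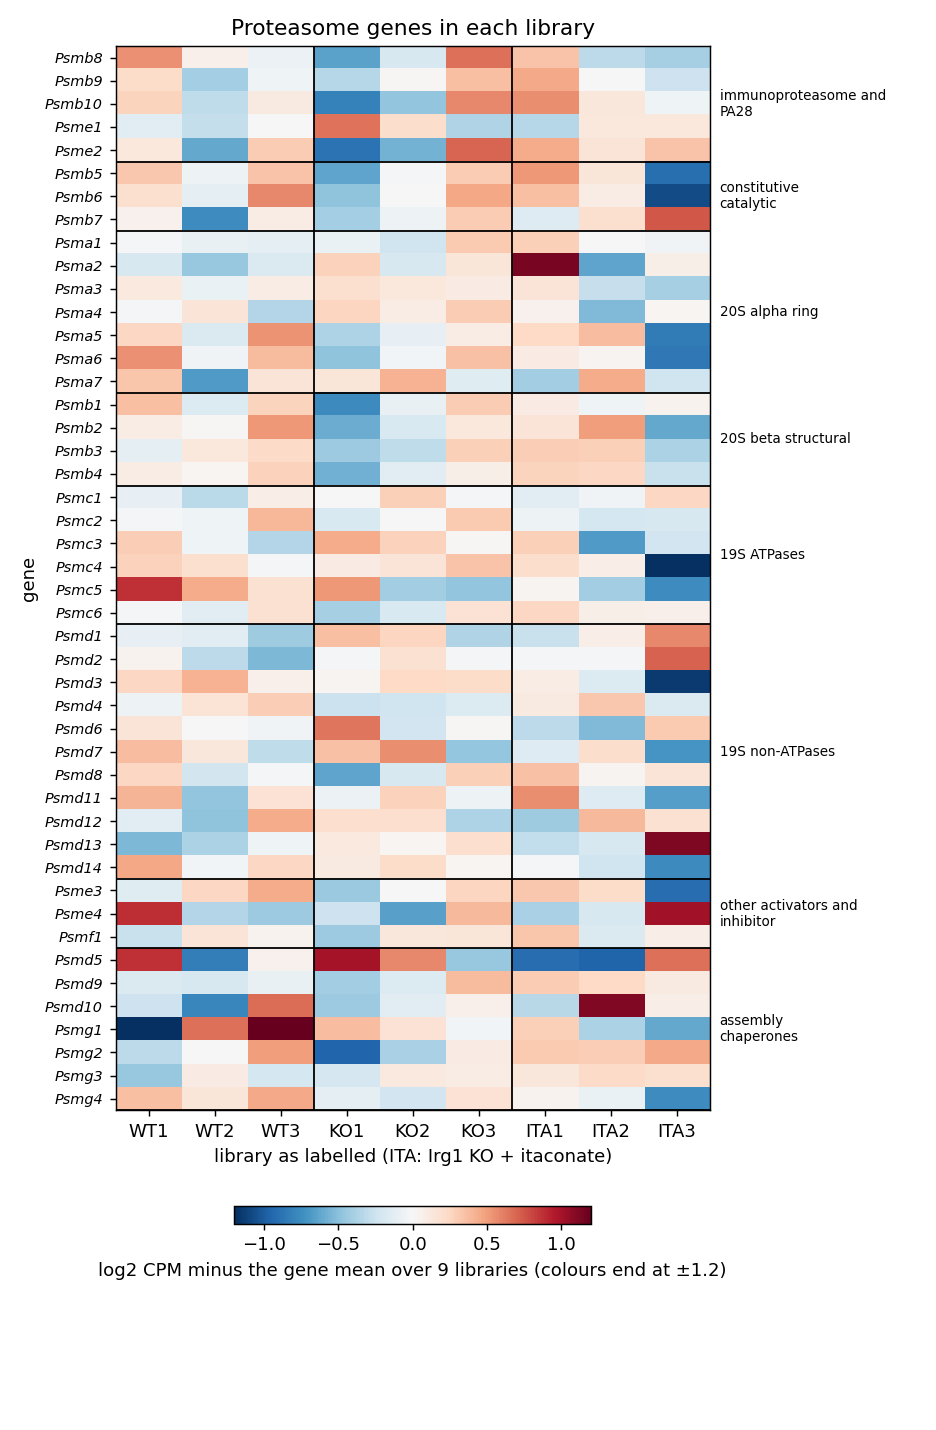
Log2 CPM of 46 proteasome genes (rows, by role) minus each gene's mean over the 9 libraries (columns), colours ending at ±1.2. KO 1 is low in the immunoproteasome and beta rows except Psme1, and ITA 3 holds the lowest value in many constitutive rows and high values in a few.

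ITA 3 was the lowest of the 9 libraries for 16 of the 49 members tested, against 26% of all genes tested. The 16 included 12 of the 31 constitutive genes and none of the 5 immunoproteasome and PA28 genes. It was the highest for 6 members, against 19.8% of all genes. KO 1 was the lowest library for 12 of 49 members, where 13.4% of all genes had their lowest value there, and WT 3 was the highest for 10 of 49 (12.4%). Other measures moved with ITA 3. The mean log2 CPM relative to the mean over libraries was -0.94 there for the macrophage markers and -1.74 for the 3 neutrophil markers tested, although the macrophage marker Itgam had 980 CPM there and 535 to 1359 CPM elsewhere. The neutrophil value includes Camp, which had 0 CPM in ITA 3 and at most 1.64 CPM in any library. S100a8 had 36.5 CPM in ITA 3 and 113 to 175 CPM elsewhere. S100a9 was not lowest there, with 41.4 CPM against 39.3 CPM in ITA 2. In ITA 3 mitochondrial genes took 0.709% of the gene reads, against 1.27% to 2.57% in the other 8 libraries, and 33.7% of the reads were in no gene, against 23.1% to 28.4%. Their part in the values of ITA 3 was not tested.

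Other activators and inhibitors cap the core without the 19S. Psme3, which forms the nuclear relative of PA28, had 27.8, 36.5 and 42.0 CPM in WT, 22.6, 30.8 and 36.9 CPM in KO, and 38.6, 35.9 and 16.4 CPM in ITA. Its groups overlapped in every comparison, and its differences were -0.24 ± 0.34, 0.01 ± 0.34 and -0.23 ± 0.34. Psme4, the single-chain activator PA200, had 443 CPM in ITA 3 and 406 CPM in WT 1 but 140 to 288 CPM elsewhere. Psmf1, an inhibitor of the core, stayed between 8.94 and 15.2 CPM.

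The retrogene Psme2b, a copy of Psme2 on chromosome 11 (ENSMUSG00000078153.3, chr11:48945354-48946190), gave the smallest p of a member in any comparison. It had 85.4, 57.5 and 30.7 CPM in WT, 78.0, 66.6 and 142 CPM in KO, and 157, 79.7 and 219 CPM in ITA. ITA 2 lay below WT 1, so the groups overlapped. ITA against WT gave 1.39 ± 0.43, with an unadjusted p of 0.00602 and an adjusted p of 0.515 by edgeR. With no filter on low counts the adjusted p was 0.0444, where 0.616% of all genes were called. ITA against KO gave 0.67 ± 0.43 and KO against WT 0.72 ± 0.43. Psme2b shares 41 of its 837 exon bases with 9930111J21Rik1 on the same strand. Reads that fit both Psme2 and Psme2b may have been set aside by the counter, so its level is uncertain.

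Assembly chaperones help build the rings and the cap and leave the finished particle. Psmg2, which pairs with Psmg1 on the alpha ring, had 9.84, 12.2 and 17.2 CPM in WT, 6.30, 9.29 and 13.1 CPM in KO, and 15.1, 15.0 and 16.8 CPM in ITA. All ITA libraries exceeded all KO libraries, with 0.72 ± 0.34 and an adjusted p of 0.597. Psmd5, a chaperone of the 19S base, was uneven within every group. It had 96.0, 29.3 and 54.0 CPM in WT, 104, 77.6 and 38.2 CPM in KO, and 27.7, 26.7 and 82.6 CPM in ITA. Over all 9 libraries ITA against KO was -0.68 ± 0.50 with an adjusted p of 0.735. Without the 4 libraries against their label, which leaves KO 1 and KO 2 against ITA 1 and ITA 2, it was -1.76 with an adjusted p of 0.0155 by edgeR, and 2.1% of all genes were called in that fit. The call thus rests on leaving those libraries out, and in that fit pool and group cannot be told apart. Psmg1 was of low level, at 0.600 to 7.09 CPM.

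Members of low level were Psma8, the alpha subunit of the testis, with 0.106 to 4.00 CPM, and Psmc3ip, with 0.422 to 3.82 CPM. Psmc3ip gave -1.34 ± 0.73 in ITA against KO and -1.50 ± 0.73 in ITA against WT. Psmb11, the thymus-specific catalytic subunit, did not pass the filter on low counts and had 4 reads, all in WT 2.

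In all, 49 of the 50 members passed the filter and were tested among 10781 genes. In KO against WT none of the 49 was called at an adjusted p of 0.05, where edgeR called 0% of all genes. Psmd13 (higher in KO) and Psmd4 (lower) were the 2 members whose groups did not overlap, and 10.6% of all genes had that property. The median log2 fold change was -0.07 over the 49 members, -0.07 over the 5 immunoproteasome and PA28 genes, -0.02 over the 31 constitutive genes and -0.01 over all genes tested. The smallest adjusted p of a member was 0.995, and none had an unadjusted p under 0.05, which 3.13% of all genes had. DESeq2 called none of the members and 0.00928% of all genes, and limma-voom called none of either.

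In ITA against KO none of the 49 members was called, where edgeR called 0% of all genes. Psmg2 and Psmg3 were higher and Psma4, Psmc3ip and Psmd14 lower with no overlap, 5 of 49 members against 10.9% of all genes. Medians were 0.05 over the members, 0.07 over the 5 genes, 0.05 over the 31 genes and -0.02 over all genes. The smallest adjusted p was 0.597. None of the members had an unadjusted p under 0.05, against 8.3% of all genes, and DESeq2 called none of them and 0.111% of all genes. By limma-voom no gene was called.

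In ITA against WT none of the 49 members was called, where edgeR again called 0% of all genes. Psmd9 and Psmg3 were higher and Psmc2, Psmc5 and Psmg4 lower with no overlap, 5 of 49 members against 14.6% of all genes. The medians were -0.04 over the members, 0.16 over the 5 genes, -0.08 over the 31 genes and -0.01 over all genes. Psmc5 and Psme2b had an unadjusted p under 0.05, which 8.89% of all genes had. DESeq2 called none of the members and 0.158% of all genes, and again limma-voom called no gene. The members named for not overlapping were chosen after their values were seen. The 3 comparisons share libraries in pairs, so their values are not independent of each other.

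**Figure D5:**
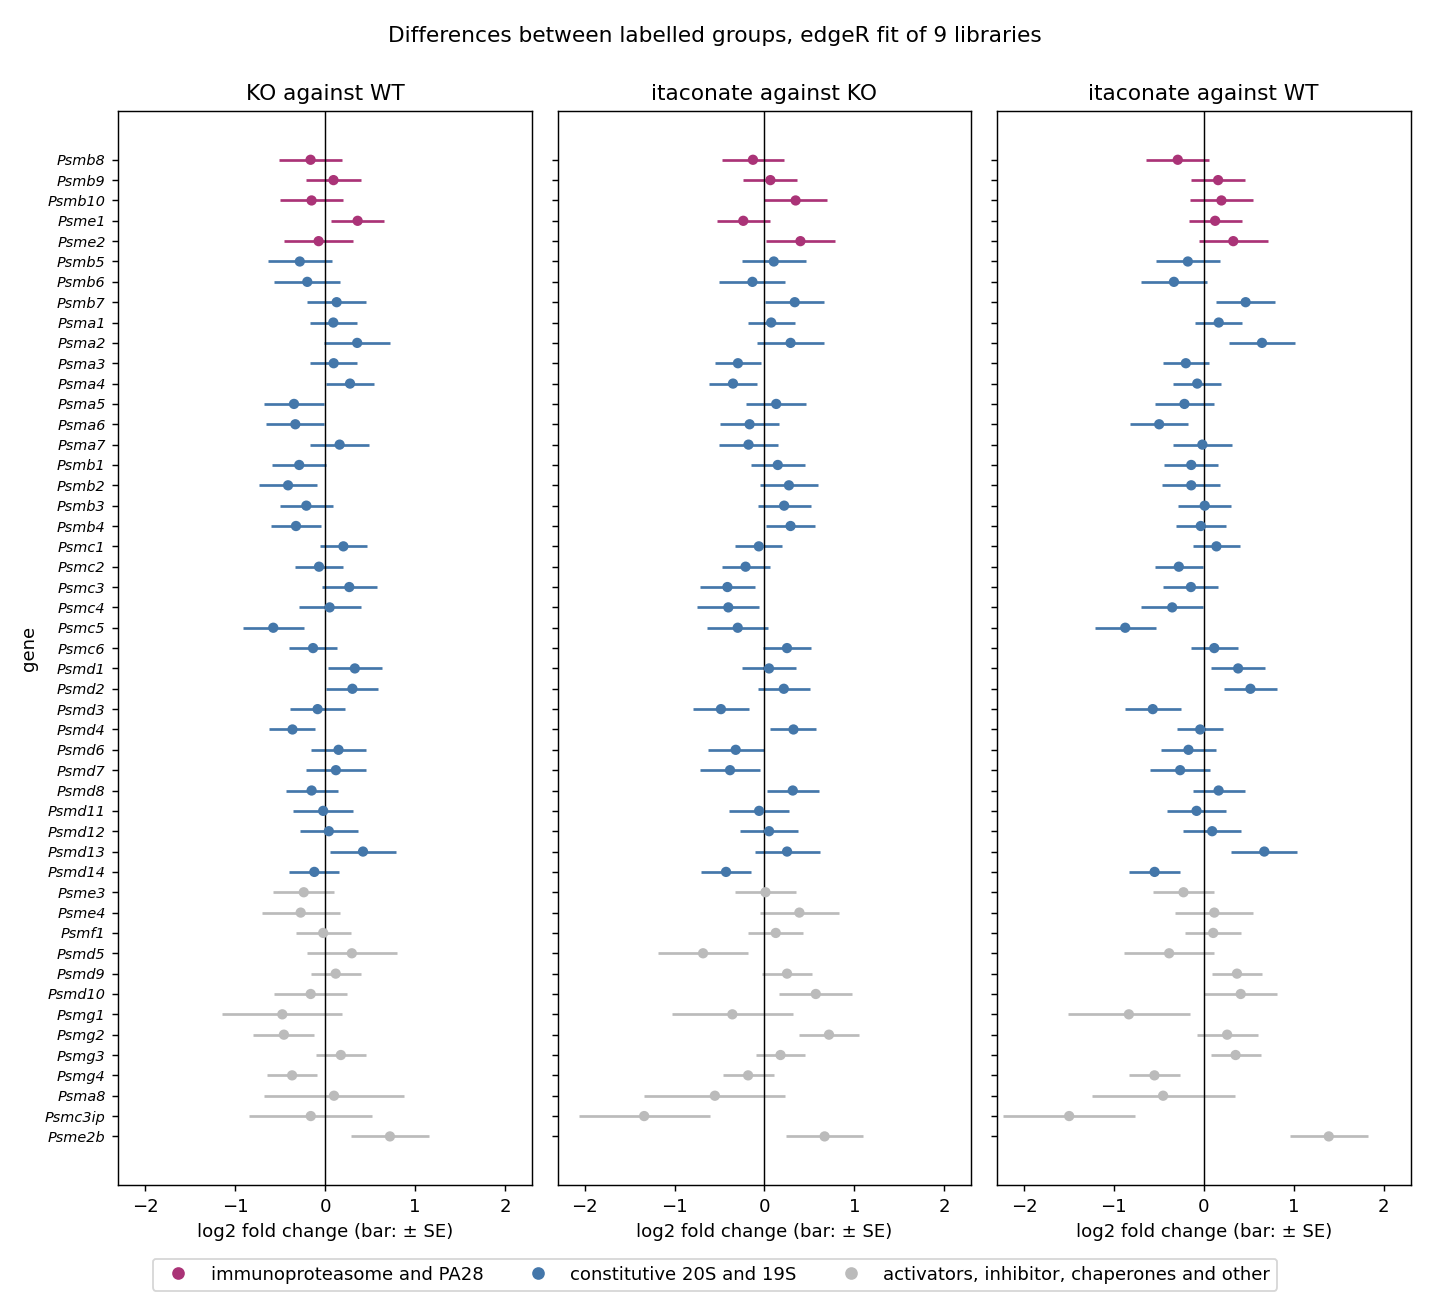
Log2 fold changes with SE of the 49 tested members in the 3 comparisons of labelled groups (x axes, edgeR fit of 9 libraries), colour by role. No member passed the test, and Psme2b and Psmc3ip lie farthest from 0 in ITA against WT.

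The intervals show what the data could not resolve. For KO against WT the 95% interval of Psmb8 ran from -0.91 to 0.58 and that of Psme1 from -0.27 to 0.99 on the log2 scale. For ITA against KO that of Psmb10 ran from -0.40 to 1.10 and that of Psme2 from -0.42 to 1.22. Differences of those sizes remain within the error. The median SD of log2 CPM over the 9 libraries was 0.40 for the members, 0.44 for the 5 genes, 0.36 for the constitutive genes and 0.46 for all genes tested.

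Genes that act with the proteasome but fall outside the symbol rule were described from 4 lists. In the fit of all 9 libraries with the filter on low counts, edgeR called no gene of these lists in any comparison. Among all genes tested, the share whose groups did not overlap was 10.6% in KO against WT, 10.9% in ITA against KO and 14.6% in ITA against WT. Of 14 tested partners of the proteasome, Uchl5 differed most. It encodes a deubiquitinase of the 19S cap, and it had 36.5, 27.3 and 26.9 CPM in WT, 58.0, 62.6 and 35.6 CPM in KO, and 20.4, 25.9 and 15.9 CPM in ITA. Every ITA library was below every KO library. ITA against KO gave -1.33 ± 0.31, with an adjusted p of 0.507 by edgeR and 0.0488 by DESeq2. Without the 4 libraries against their label it gave -1.40 with an adjusted p of 0.0384 by edgeR. In that fit pool and group cannot be told apart for ITA against KO. Over all 9 libraries KO against WT gave 0.79 ± 0.30 for Uchl5. Txnl1, a thioredoxin-like protein bound to the 19S, had 85.6, 93.3 and 86.9 CPM in WT, 208, 155 and 102 CPM in KO, and 85.8, 75.5 and 116 CPM in ITA. All its KO libraries were above all WT libraries (0.81 ± 0.30, adjusted p = 0.995). Ddi2, the protease that activates the factor inducing proteasome genes, gave 0.60 and Zfand2a, a stress-induced proteasome-binding protein, -0.82 in ITA against WT.

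Of 13 genes of ubiquitin supply and delivery, none had an unadjusted p under 0.05 in any comparison. Uba1, the main ubiquitin-activating enzyme, gave -0.41 ± 0.29 and Ubqln1, a shuttle for tagged proteins, 0.44 ± 0.36 in KO against WT. Ufd1 gave 0.55 ± 0.30 in ITA against KO, and the ubiquitin gene Ubb -0.65 ± 0.37 and Uba1 -0.45 ± 0.29 in ITA against WT. Of 11 genes of peptide loading and class I, Tap2, the second subunit of the transporter, had 16.9, 16.8 and 19.8 CPM in WT, 18.0, 18.7 and 45.5 CPM in KO, and 42.6, 35.6 and 60.4 CPM in ITA. Every ITA library exceeded every WT library, with 1.38 ± 0.37 and an adjusted p of 0.515. Tap1, which lies in the same block of genes, gave -0.28 ± 0.30 in that comparison. H2-K1, a class I heavy chain, had 1376, 1267 and 1946 CPM in WT, 949, 1363 and 1965 CPM in KO, and 2271, 2483 and 2641 CPM in ITA. ITA was above both other groups with no overlap, by 0.79 ± 0.30 over KO and 0.69 ± 0.30 over WT, with adjusted p-values of 0.526 and 0.549 by edgeR. H2-D1, the other heavy chain of the list, overlapped in both comparisons, with 0.32 ± 0.27 and 0.15 ± 0.27. B2m, the class I light chain, gave 1.05 ± 0.43 in ITA against KO, where ITA 1 had 20611 CPM and the other 8 libraries 3463 to 7638 CPM. In KO against WT, Pdia3, a chaperone of class I loading, gave 1.17 ± 0.52 with no overlap (adjusted p = 0.995), with 94.6 to 136 CPM in WT and 169 to 438 CPM in KO. Tapbpl, an editor of the loaded peptides, gave 0.61 ± 0.33. Of 10 interferon regulators, Ifngr1 and Ifngr2, which encode the chains of the interferon-gamma receptor, had the smallest p in KO against WT. Ifngr1 had 71.2, 98.9 and 88.1 CPM in WT and 112, 264 and 102 CPM in KO, with no overlap, and gave 0.89 ± 0.35. Ifngr2 gave 1.46 ± 0.62, where KO 1 had 531 CPM and KO 2 only 79.2 CPM. Both had an adjusted p of 0.995 by edgeR. In ITA against WT, Stat2 had the smallest p of the regulators, with 892, 562 and 789 CPM in WT, 1018, 664 and 1103 CPM in KO, and 903, 1450 and 2489 CPM in ITA. It gave 1.11 ± 0.36 in ITA against WT, with an adjusted p of 0.515. In ITA against KO, Stat2 gave 0.80 ± 0.36 and Irf1 0.72 ± 0.39.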

How the data were processed

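Libraries were made from oligo-dT-primed, barcoded RNA and sequenced with strand kept, per the labels' protocols, which name no molecular identifier. Reads of such libraries lie near transcript ends, so levels were compared between libraries and not between genes. The values are whole-number counts per gene, as deposited by the authors in 1 table. STAR, HTSeq and mm10 are named in the submitters' processing notes, with versions, annotation and strand setting not given in the sources used here. Symbols came from a reference name table for 21745 of 22165 rows. The 5 summary lines stayed out: 23.1% to 33.7% of the reads of a library were in no gene, 17.1% to 20.0% aligned more than once, and 0.275% to 0.441% were ambiguous.

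Genes were kept by the expression filter of edgeR 4.0.16 (minimum count 10; 10781 genes), scaled by TMM and tested in R 4.3.3 with the two-sided quasi-likelihood F test over all 9 libraries, group being the only term. P-values were adjusted by Benjamini-Hochberg over all genes tested, with a threshold of 0.05. The SE is the log2 fold change divided by the square root of F, and log2 CPM used a prior count of 1. DESeq2 1.42.0, voom of limma 3.58.1, other scaling, no filter, the replicate block, pool settings and left-out libraries were the alternatives. At these depths 3 reads correspond to 0.147 to 0.408 CPM before TMM, and reads without molecular identifiers limit such floors to counting error.

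The rule for the members and the gene lists were chosen with earlier results of these data known. Named genes were the 5 immunoproteasome and PA28 genes and their 4 counterparts, the 4 members with the smallest p in each comparison, members called by edgeR or DESeq2, and the 2 genes of each other list with the smallest p, of which 1 is not reported here. Markers of B cells, neutrophils, conventional dendritic cells and fibroblasts summed to at most 1.47, 250, 3.33 and 274 CPM, without adjustment by TMM.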

Additional observations from a re-analysis of the deposited data

How the results depend on the processing

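Over 65 gene results in 3 comparisons and their alternatives, 1105 values in all, no called result was lost because none was called, 7 values passed the threshold and 52 changed sign, 30 of them with 1 library left out. The number of members called was 0 under every alternative except 2: it was 1 in ITA against KO without the 4 libraries against their Acod1 label (Psmd5) and 1 in ITA against WT with no filter on low counts (Psme2b). Outside the members, Uchl5 in ITA against KO passed with no filter (adjusted p = 0.0314), in DESeq2 (0.0488) and without the 4 libraries (0.0384), B2m in ITA against KO without the 4 libraries (0.0318) and Tap2 in ITA against WT with no filter (0.0391).

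The difference between the immunoproteasome and constitutive genes was -0.2792 in KO minus WT and 0.5146 in ITA minus KO with the median over genes. With 1 library left out it ran from -0.2139 to 0.09709 in KO minus WT, from 0.1015 to 0.4125 in ITA minus KO and from 0.1297 to 0.26 in ITA minus WT.

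Without the 4 libraries 1 WT library remained, which the fit assumes to vary like the other groups. For ITA against KO, pool and group cannot be told apart in that fit, which bears on Psmd5, Uchl5 and B2m. Log2 fold changes of single genes turned sign as follows, and the cause was not tested. Without the 4 libraries, KO against WT was -0.2958 for Psmb7, -0.09295 for Psmb9 and -0.04723 for Ubqln1, ITA against KO was 0.4324 for Psmb6 and 0.4356 for Psmb8, and ITA against WT was -0.06187 for Psmb7, 0.1204 for Psmb8, -0.08449 for Psme1 and -3.965e-05 for Psme2. In pool 1 only, KO against WT was -0.04946 for Psmb7 and -0.08136 for Psmb9, and with pool as a term it was -0.06913 and -0.1002. With pool as a term, ITA against KO rests on 1 library of each group in pool 2, and was -0.371 for Irf1, -0.01937 for Psmb10, -0.456 for Psmb7, 0.5064 for Psmc5, 0.01576 for Psme1, -0.2485 for Psme2 and -0.2883 for Stat2. Psme3 in ITA against KO was -0.001904 with no filter and -0.04897 in limma-voom.

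With 1 library left out at a time, KO against WT ranged from -0.6625 to 0.1037 for Psmb10, from -0.4528 to 0.007521 for Psmb6, from -0.0984 to 0.2878 for Psmb7, from -0.5962 to 0.08946 for Psmb8, from -0.09097 to 0.2568 for Psmb9 and from -0.6957 to 0.2081 for Psme2. ITA against KO ranged from -0.2174 to 0.4217 for Psmb5, from -0.4224 to 0.1931 for Psmb6, from -0.399 to 0.327 for Psmb8, from -0.1513 to 0.2709 for Psmb9, from -0.5306 to 0.1012 for Psmc5, from -0.446 to 0.03462 for Psme1 and from -0.2008 to 0.3172 for Psme3. ITA against WT ranged from -0.4987 to 0.1478 for Psmb5, from -0.6205 to 0.003194 for Psmb6, from -0.05781 to 0.3231 for Psmb9 and from -0.4381 to 0.08802 for Psme3. Most of the extremes came from leaving out KO 1, KO 3, ITA 1 or ITA 3.

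Over all genes tested, replicate numbers gave no clear pairing. Libraries of the same number had correlations of deviations from the group means of -0.144 to 0.222, and 4 of 9 libraries matched best with their own number. Acod1 did follow the number, being high in replicate 3 and low in replicates 1 and 2 of every group. Whether the number stands for a shared origin was not tested. With the replicate block the members called stayed at 0 in the 3 comparisons, and 1, 1 and 2 members had an unadjusted p under 0.05, where 0, 0 and 2 had one without it. That count ranged over 0 to 1, 0 to 4 and 2 to 6 with 1 library left out.

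At 3 libraries a group, the SE of the 5 immunoproteasome and PA28 genes was 0.29 to 0.38 on the log2 scale. Differences of that size could not be resolved. The sources used here name no separate animals, the pool partly follows the group, and all libraries had LPS.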
